A study of Mus musculus with 24 samples.

Results

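The genes described here encode 9 proteins of the milk fat globule, the lipid droplet and the fatty acid supply of mammary cells: Btn1a1, Xdh, Plin2, Cidea, Mfge8, Muc1, Fabp3, Cd36 and Lpl. They were chosen by name, as the rows of the gene count table whose Entrez identifiers map to these symbols, and are 9 of the 27179 genes in the table. All 9 were among the 18109 genes with enough reads to be tested. The measurements are bulk RNA-seq of mammary epithelial cells taken at puberty, with 12 groups of 2 libraries each, 24 in all. Microdissection gave ducts on the one hand and terminal end buds (TEBs) on the other, the club-shaped ends at which the ductal tree grows into the fat pad, and each was sorted by flow cytometry. Cells without lineage markers and with EpCAM were split into basal cells (high CD29) and luminal cells (low CD29).

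In one mouse model, labelled Elf5-rtTA-IRES-GFP, luminal cells were divided into GFP-positive and GFP-negative cells; GFP marks cells that use the Elf5 allele, and the same allele encodes the transactivator rtTA. In the other, labelled PR-cre/Rosa26-LSL-eYFP, they were divided into YFP-positive and YFP-negative cells; YFP marks cells that have expressed Cre with the progesterone receptor gene. Every Elf5-model library thus carries the reporter allele and every PR-cre library carries Cre and the YFP reporter, and no library of mice without these alleles was analysed here. The 12 groups are the ducts and the TEBs of basal, GFP-positive and GFP-negative cells of the Elf5 model, and of basal, YFP-positive and YFP-negative cells of the PR-cre model. The labels give no age beyond puberty, no agent and no strain. GFP-positive and YFP-negative cells are called progenitor gates below, and GFP-negative and YFP-positive cells hormone-sensing gates. Marker genes of the cell types go with these names: of 9 luminal progenitor markers, all 9 were higher in the progenitor gates in ducts and 8 in TEBs. The summed level of 9 hormone-sensing markers ran from 6526 to 10440 CPM (counts per 1e6 counts of a library) in the hormone-sensing gates and from 392 to 1294 CPM in the progenitor gates. Elf5 and Pgr, whose genes drive the reporters used for sorting, are on these lists.

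The milk fat globule is a droplet of triglyceride that leaves the secretory cell wrapped in its apical membrane. In the accepted textbook view, the droplet is coated by perilipin 2 (Plin2), meets butyrophilin (Btn1a1) and xanthine dehydrogenase (Xdh) at the apical membrane, and is released with membrane glycoproteins such as MFG-E8 (Mfge8) and MUC1 (Muc1) on its surface. CIDEA is a lipid droplet protein that promotes droplet growth and milk lipid secretion. Fatty acids for the triglyceride come partly from lipoproteins cut by lipoprotein lipase (Lpl), are taken up with the help of CD36 (Cd36) and are bound inside the cell by FABP3 (Fabp3). The genes are best known for their induction in pregnancy and lactation.

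Libraries held between 31.3 and 52.5 counts in units of 1e6, so that 3 counts, taken as the floor, were worth 0.0579 to 0.097 CPM. CPM values use library totals after TMM scaling (trimmed mean of M values). Nothing in the labels ties replicate libraries to different animals, and the p-values below therefore refer to the spread among libraries, which may be technical in part. A pair of libraries stood apart by transcripts of skin keratinocytes: the summed level of the keratinocyte markers was 2645 CPM in GFP-negative duct replicate 2 and 531.7 CPM in YFP-negative TEB replicate 2, against 10.47 to 142.6 CPM in the other 14 luminal libraries. Basal cells also express some of these markers. Calls that changed without this pair are given with and without it. In bulk samples such as these, fewer cells of a type and less RNA per cell cannot be told apart.

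In the mouse genome (GRCm38.p6, the assembly also called mm10) the genes were placed as follows: Btn1a1 (Entrez 12231) at chr13:23456984-23465914, Xdh (22436) at chr17:73883895-73950397, Plin2 (11520) at chr4:86626910-86670217 and Mfge8 (17304) at chr7:79133768-79149060. Muc1 (17829) is at chr3:89229056-89233381, Fabp3 (14077) at chr4:130308738-130315463, Cd36 (12491) at chr5:17781690-17888959, and Lpl (16956) at chr8:68880555-68906932. Cidea has the identifier 12683. The exons counted for each gene add up to between 640 bases (Fabp3) and 4587 bases (Xdh), per the file headers. The library kit does not mark strand, so reads of overlapping genes cannot be told apart: Fabp3 overlaps Zcchc17, and Btn1a1, Xdh, Plin2 and Cidea overlap predicted, transfer RNA or long non-coding genes.

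Promoter sequences were in the RefSeq table (GRCm38.p6) for 5 of the 9 genes: Plin2, Mfge8, Muc1, Fabp3 and Cd36. The 250 bases before the start are printed for the 3 of these that fell together in TEBs of the progenitor gates, 5′ to 3′ on the gene's own strand. The start is the one in that table: for Plin2 it lies 158 bases inside the gene as placed above, and for Cd36 53063 bases inside. Capitals mark GC boxes (GGGCGG, or CCGCCC where it lies on the other strand) and, in Muc1, a TATA box (TATAAA).
Mfge8, chr7:79149061-79149310, minus strand: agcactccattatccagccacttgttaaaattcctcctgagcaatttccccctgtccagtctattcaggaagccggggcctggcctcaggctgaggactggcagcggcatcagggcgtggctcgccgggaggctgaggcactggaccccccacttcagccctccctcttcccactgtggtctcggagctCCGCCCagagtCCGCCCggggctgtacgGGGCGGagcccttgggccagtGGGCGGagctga
Muc1, chr3:89228806-89229055, plus strand: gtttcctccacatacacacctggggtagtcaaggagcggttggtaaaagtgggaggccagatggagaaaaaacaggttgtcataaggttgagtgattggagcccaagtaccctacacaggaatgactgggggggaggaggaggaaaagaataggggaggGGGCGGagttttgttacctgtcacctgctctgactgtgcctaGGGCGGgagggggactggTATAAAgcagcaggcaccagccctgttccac
Plin2, chr4:86670060-86670309, minus strand: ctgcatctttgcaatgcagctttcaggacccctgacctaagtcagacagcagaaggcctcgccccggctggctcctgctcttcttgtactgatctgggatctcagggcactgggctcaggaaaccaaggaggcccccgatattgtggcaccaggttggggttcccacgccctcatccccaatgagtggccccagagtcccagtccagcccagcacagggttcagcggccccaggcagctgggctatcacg
On either strand, none of the 5 promoters held the letters searched for STAT5 (TTCNNNGAA), for ETS factors such as ELF5 (CCGGAAG), for C/EBP (TTGCNNAA) or for the PPAR element DR1 (a repeat of AGGTCA with 1 base between the copies). Those letters are in 7.02%, 6.91%, 9.56% and 0.0335% of 32851 promoters of the same length. The GC box and the TATA box were added to the search after the sequences had been seen. The GC box matched 4 times in Mfge8, 2 times in Muc1 and 2 times in Cd36, and is in 32.7% of all these promoters. The TATA box matched once, in Muc1, at bases 31 to 26 before the start, and is in 12.4% of all. The 3 sequences thus share none of the letters searched, since Plin2 held neither box.

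**Figure D1:**
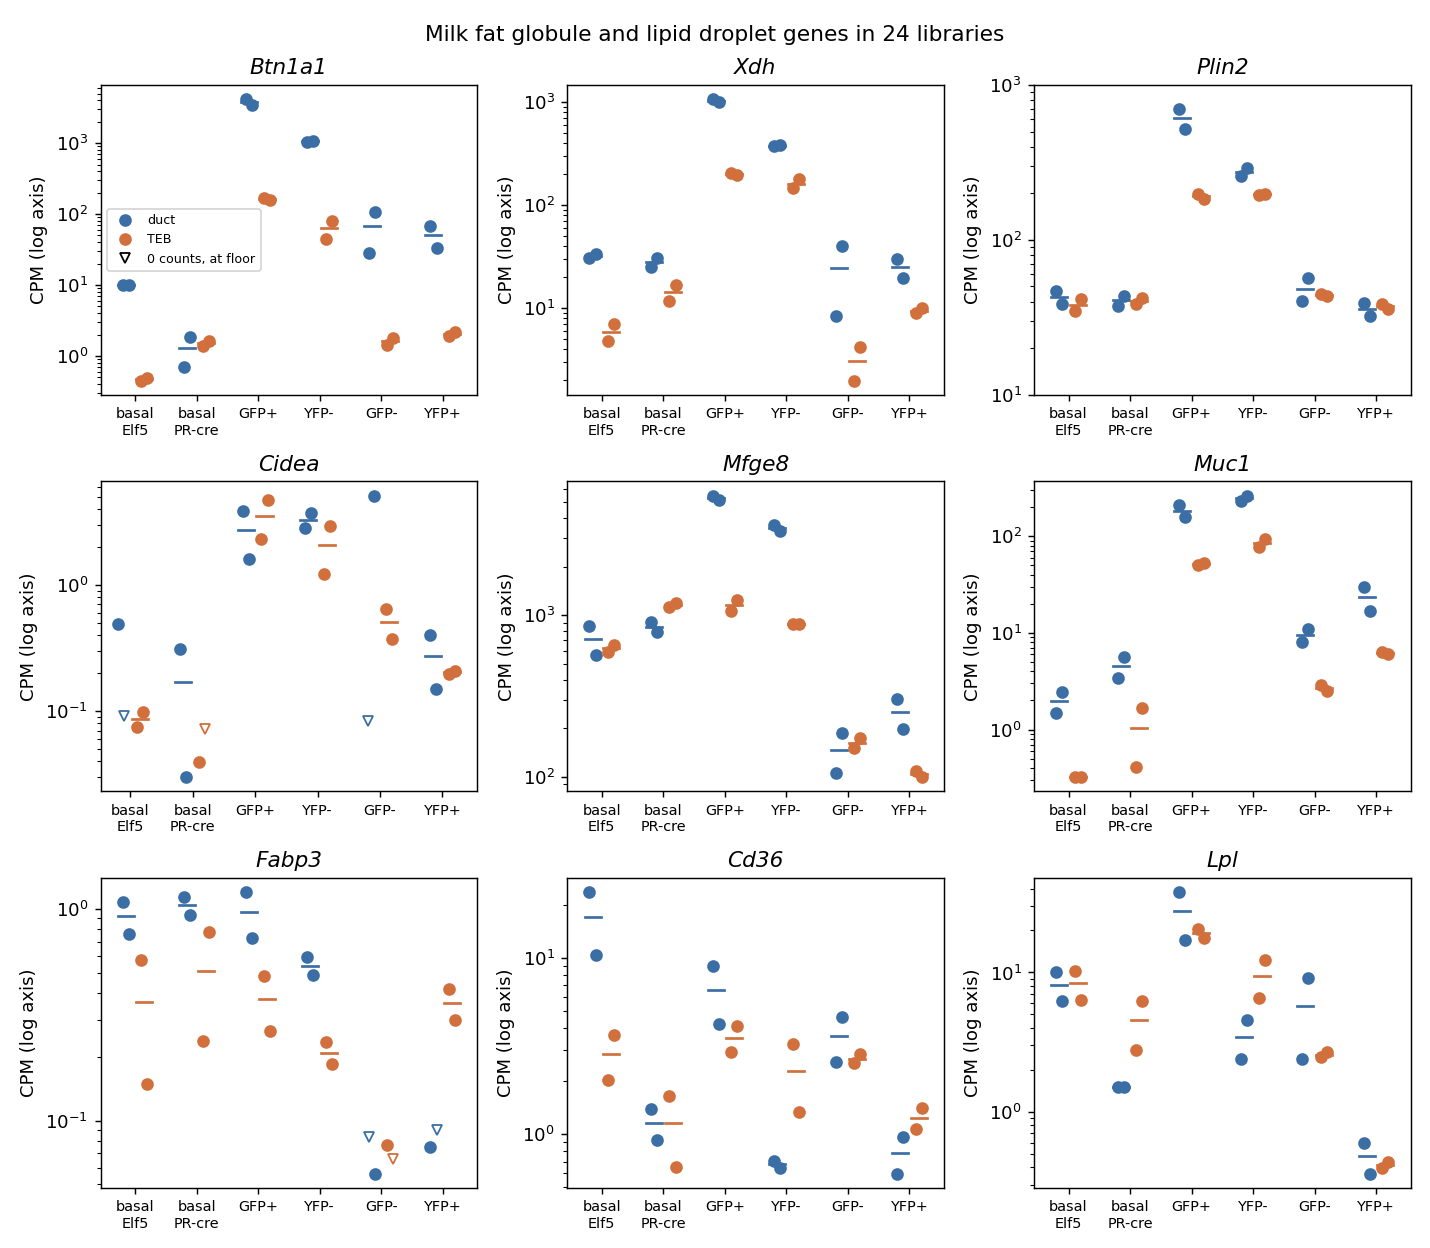
CPM (log axis) of the 9 genes in each of the 24 libraries, with 1 panel per gene, the 6 sorted gates along the x axis, and ducts and TEBs marked by colour. Btn1a1 reached 4192 CPM in GFP-positive duct cells, and its 4 TEB libraries of the progenitor gates lay between 45.2 and 169 CPM.

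Per length of transcript, the abundant genes of the set were Mfge8, Btn1a1, Plin2, Xdh and Muc1, and they were highest in duct cells of the progenitor gates. In GFP-positive duct cells, mean levels in reads per kilobase and 1e6 reads (RPKM) were 2515 for Mfge8, 1107 for Btn1a1, 322.6 for Plin2, 224.5 for Xdh and 81.6 for Muc1. In the same cells the RPKM level was 6.78 for Lpl, 2.35 for Cidea, 1.68 for Cd36 and 1.51 for Fabp3. Mfge8 had the highest RPKM of the 9 genes in every group, while the gene in second place changed: Btn1a1 in ducts of the progenitor gates and Plin2 in the other 10 groups. The 9 genes together took 1.00% and 0.921% of all counts in the GFP-positive duct libraries, and 0.186% and 0.200% in the GFP-positive TEB libraries.

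The first comparison asks how TEBs differed from ducts within the progenitor gates. Of the 9 genes, 5 were lower in TEBs at an adjusted p under 0.05 and none was higher. Over all genes tested, 15.2% were lower by this rule. The median log2 fold change of the 9 genes was -1.36, beside 0.02 over all genes. Tests are edgeR's quasi-likelihood test with Benjamini-Hochberg adjustment over the 18109 genes, in one fit of all 24 libraries.

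Btn1a1, the membrane protein that binds the droplet at release, had the largest fall of the 5. It was at 4192 and 3447 CPM in GFP-positive ducts and at 169 and 158 CPM in GFP-positive TEBs. In YFP-negative cells it was at 1053 and 1073 CPM in ducts and at 45.2 and 80.9 CPM in TEBs. Every TEB library was below every duct library. The log2 fold change was -4.31 ± 0.39 (SE), 19.84-fold lower, with an adjusted p of 2.73e-06.

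Xdh, the partner of butyrophilin at the apical membrane and the enzyme that makes urate from purines, was at 1066.5 and 993 CPM in GFP-positive ducts and at 202 and 197 CPM in TEBs. In YFP-negative cells it was at 373 and 382 CPM in ducts and at 145 and 177 CPM in TEBs. The groups did not overlap, and the log2 fold change was -1.80 ± 0.35 (adjusted p = 0.00144). Within single gates the fall passed the test in GFP-positive cells (-2.37, adjusted p = 0.00469) and did not in YFP-negative cells (-1.23, adjusted p = 0.102).

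Plin2, the coat protein of the cytoplasmic droplet, was at 694 and 523 CPM in GFP-positive ducts, at 259 and 291 CPM in YFP-negative ducts, and between 183 and 198 CPM in the 4 TEB libraries. The TEB libraries of the 2 models lay close together, and the ducts were spread. The log2 fold change was -1.08 ± 0.12 (adjusted p = 3.48e-06). It was -1.67 in GFP-positive cells and -0.48 in YFP-negative cells, where the adjusted p was 0.0484, and 0.0715 without the libraries with keratinocyte transcripts.

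Mfge8, a secreted glycoprotein of the globule surface that also bridges dying cells to phagocytes, was at 5504 and 5191 CPM in GFP-positive ducts and at 1063 and 1249 CPM in GFP-positive TEBs. In YFP-negative cells it was at 3601 and 3305 CPM in ducts and at 881.8 and 882.2 CPM in TEBs. No TEB library reached the lowest duct library, and the log2 fold change was -2.09 ± 0.17 (adjusted p = 3.67e-07). Muc1, a transmembrane mucin of the apical surface, was at 208 and 157 CPM in GFP-positive ducts and at 50.2 and 52.2 CPM in TEBs. In YFP-negative cells it was at 231 and 263 CPM in ducts and at 76.6 and 92.8 CPM in TEBs. The groups were again apart, with a log2 fold change of -1.69 ± 0.27 (adjusted p = 0.000247).

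The other 4 genes did not pass the test in this comparison, and all 4 were of lower level than the 5. Cidea was between 1.61 and 3.85 CPM in the 4 ducts and between 1.21 and 4.70 CPM in the 4 TEBs, and the groups overlapped (log2 fold change -0.15 ± 0.97). Fabp3 was from 0.48 to 1.20 CPM in ducts and from 0.18 to 0.48 CPM in TEBs, with a log2 fold change of -1.36 ± 0.77 (adjusted p = 0.197). Cd36 was at 8.98 and 4.21 CPM in GFP-positive ducts, at 0.70 and 0.65 CPM in YFP-negative ducts, and between 1.34 and 4.13 CPM in TEBs. Its log2 fold changes had opposite signs in the 2 gates: -0.90 (adjusted p = 0.275) in GFP-positive cells and 1.76 (adjusted p = 0.0493) in YFP-negative cells. In YFP-negative cells Fabp4, a gene of the adipocyte list below, was at 0.162 and 1.33 CPM in ducts and at 4.36 and 3.30 CPM in TEBs. There the sum of the 14 endothelial markers was 10.8 and 9.12 CPM in ducts and 35.0 and 13.95 CPM in TEBs. Of these markers 2 were higher in TEBs over the progenitor gates and none was lower, and their part in the result was not tested. The call on Cd36 in YFP-negative cells was the 1 higher call among the 54 tests of 9 genes in 6 gates, and its adjusted p was above 0.05 with other normalization (0.0559), without the filter on low counts (0.0616) and with only the groups compared (0.0774). Lpl was at 37.8 and 17.1 CPM in GFP-positive ducts and at 20.4 and 17.7 CPM in GFP-positive TEBs. In YFP-negative cells Lpl was at 2.38 and 4.53 CPM in ducts and at 6.58 and 12.18 CPM in TEBs, which did not overlap (1.44, adjusted p = 0.0912).

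Luminal progenitor markers moved with these genes: 7 of the 9 were lower in TEBs of the progenitor gates and none was higher, and their sum was 13280 to 62530 CPM in ducts and 4766 to 8778 CPM in TEBs. Elf5, the transcription factor of these cells, was lower by a log2 fold change of -0.89 (1.859-fold, adjusted p = 0.00315). Their part in the result was not tested.

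Other genes of the pathway were followed in 5 lists, in a comparison where 17.4% of all genes tested were higher and, as above, 15.2% lower. Of 17 tested genes of other lipid droplet proteins, 7 were lower in TEBs of the progenitor gates and none was higher, with a median log2 fold change of -0.33. They included Hilpda (3.199-fold), an inhibitor of triglyceride lipase, Pnpla2 (1.764-fold), which encodes that lipase, and Lipe (1.474-fold), hormone-sensitive lipase. Triglyceride synthesis was mostly not called: 3 of 15 genes were higher, among them Lpin2 (1.783-fold), and Lpin1, a phosphatidate phosphatase, was lower (2.302-fold). Of 17 genes of fatty acid uptake and transport, 4 were higher and 3 were lower. Angptl4, a secreted inhibitor of lipoprotein lipase, was 5.24-fold lower. Of 14 other fat globule membrane genes, 5 were lower and 4 were higher. Btn2a2, a relative of Btn1a1, was 9.663-fold lower, the phosphate transporter gene Slc34a2 7.07-fold lower and the folate receptor gene Folr1 3.962-fold lower, while the mucin gene Muc4 was 2.179-fold higher. Of 13 regulators of milk fat genes, 4 were lower and none was higher, among them Nr1h3 (3.337-fold), Pparg (2.749-fold) and Elf5.

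**Figure D2:**
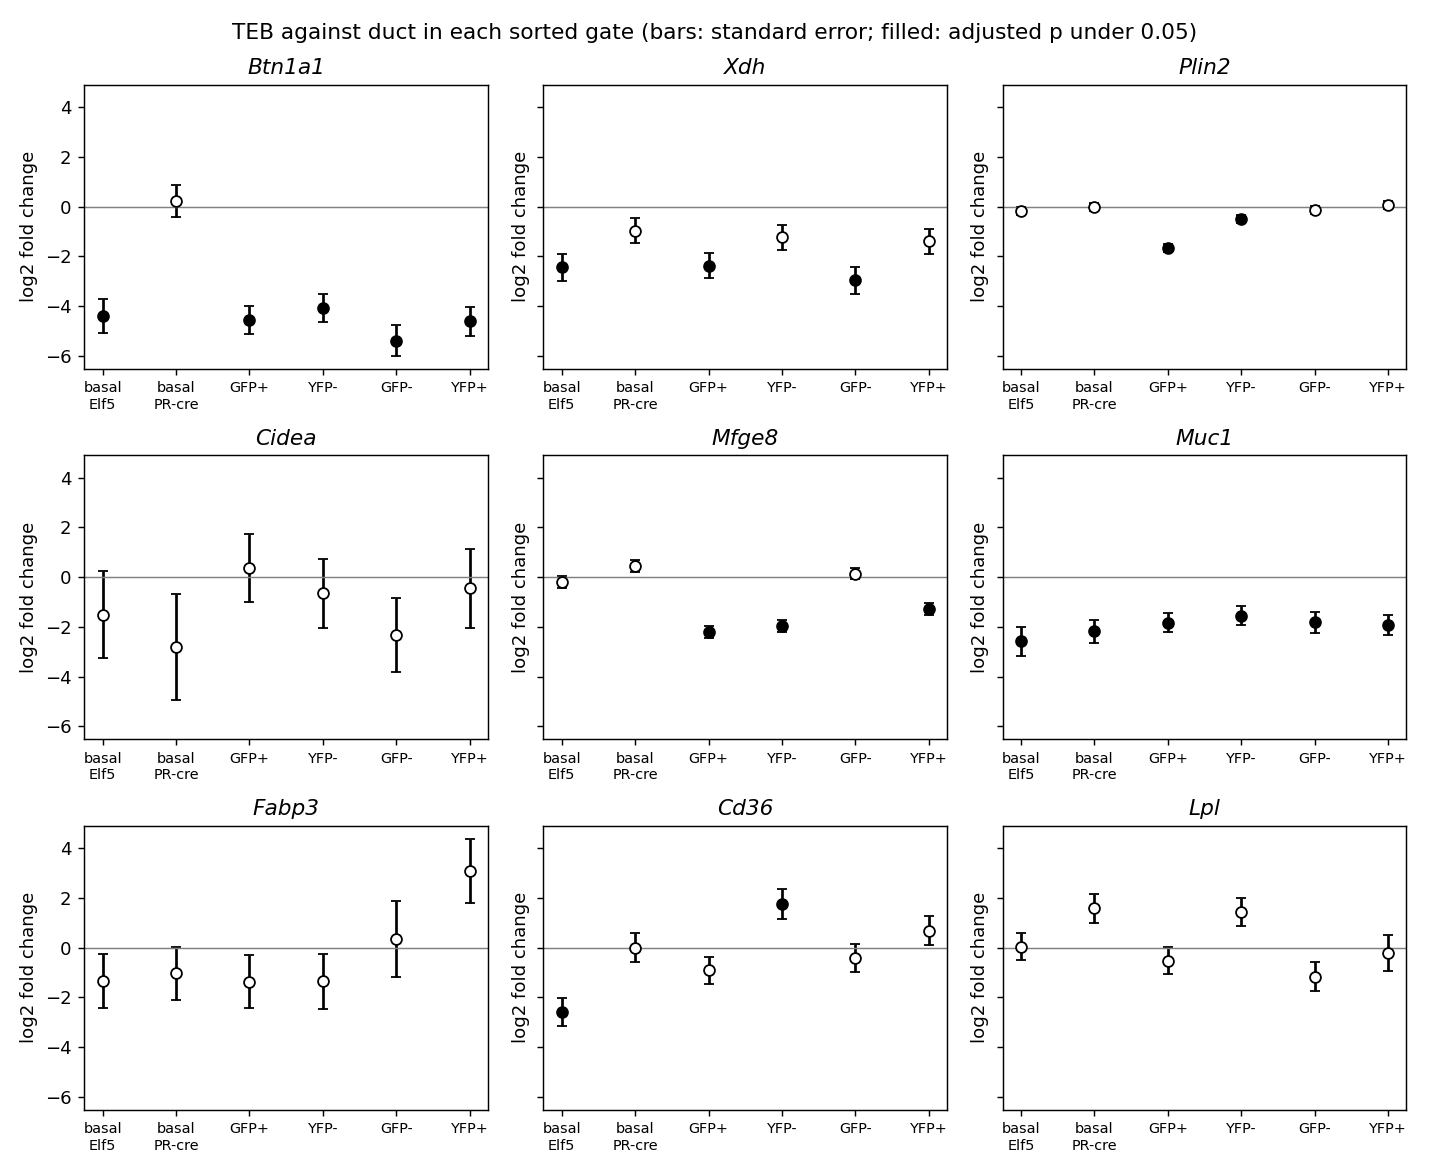
Log2 fold change of TEB against duct (y axis) in each of the 6 sorted gates (x axis) for the 9 genes, with bars for the standard error of the fit and filled points for an adjusted p under 0.05. Muc1 is filled in 6 of 6 gates, Btn1a1 in 5, and Cidea, Fabp3 and Lpl in none.

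In the hormone-sensing gates, 4 of the 9 genes were lower in TEBs and none was higher, where 11.6% of all genes tested were lower. The median log2 fold change was -0.69 over the 9 genes and 0 over all genes. Btn1a1 was at 28.6 and 106.9 CPM in GFP-negative ducts, at 68.1 and 33.0 CPM in YFP-positive ducts, and between 1.41 and 2.21 CPM in the 4 TEBs. The groups were far apart, and the log2 fold change was -4.99 ± 0.42, 31.89-fold lower (adjusted p = 4.5e-06). Without GFP-negative duct replicate 2, at 106.9 CPM, the log2 fold change was -4.37. In a fit of the 4 GFP-negative libraries alone, the adjusted p for Btn1a1 was 0.116.

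Muc1 was at 7.98 and 11.05 CPM in GFP-negative ducts, at 29.95 and 16.65 CPM in YFP-positive ducts, and between 2.52 and 6.29 CPM in TEBs, again without overlap (-1.87 ± 0.29, adjusted p = 0.000373). Xdh was at 8.37 and 40.1 CPM in GFP-negative ducts, at 29.997 and 19.8 CPM in YFP-positive ducts, and between 1.97 and 9.91 CPM in TEBs. Its groups overlapped through the lowest duct library. The log2 fold change was -2.18 ± 0.38 (adjusted p = 0.000994, and 0.0547 in a fit of only the groups compared). Without GFP-negative duct replicate 2, at 40.1 CPM, it was -1.41 (adjusted p = 0.00052).

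Mfge8 and Plin2 had smaller differences in these gates. Mfge8 was at 106 and 187 CPM in GFP-negative ducts against 150 and 173 CPM in TEBs, and at 304 and 198 CPM in YFP-positive ducts against 109 and 99.5 CPM in TEBs. It was lower in YFP-positive cells (-1.27, adjusted p = 0.00424) and not called in GFP-negative cells (0.15, adjusted p = 0.725). Over both gates the log2 fold change was -0.56 ± 0.17 (adjusted p = 0.0216), and it was -0.33 (adjusted p = 0.137) without GFP-negative duct replicate 2. The call was also lost without YFP-positive duct replicate 1 (adjusted p = 0.122), YFP-positive TEB replicate 2 (0.0712) or GFP-negative TEB replicate 1 (0.0813), and in a fit of only the groups compared (0.133). Plin2 stayed between 32.5 and 56.6 CPM in all 8 libraries (-0.04 ± 0.12, adjusted p = 0.893).

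The 4 low genes were not called here. Cidea was at 0 and 5.10 CPM in GFP-negative ducts, so that 1 library with keratinocyte transcripts held the highest level of all 24, and it was between 0.15 and 0.64 CPM in the other 6 hormone-sensing libraries. Fabp3 had 0 to 3 counts in the 4 ducts, and at most 0.42 CPM in TEBs. Cd36 was from 0.60 to 4.63 CPM in ducts and from 1.08 to 2.84 CPM in TEBs. Lpl was from 0.36 to 9.06 CPM in ducts, the highest in GFP-negative duct replicate 2, and from 0.40 to 2.67 CPM in TEBs.

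Luminal progenitor markers were also present at a low level in the hormone-sensing gates and moved with the genes. Of the 9 markers 6 were lower in TEBs and 1 was higher, and the sum was 476.2 to 1283 CPM in ducts and 122.2 to 259.1 CPM in TEBs. Other lists moved too: 7 of 10 basal markers, 5 of 9 tested keratinocyte markers and 3 of 10 fibroblast markers were lower in these TEBs, and 1 basal marker was higher. Their sums in ducts and TEBs were 798.7 to 4362 and 913.2 to 1149 CPM for basal markers, 19.2 to 2645 and 10.47 to 50.76 CPM for keratinocyte markers, and 177.5 to 815 and 61.65 to 346.3 CPM for fibroblast markers. The mean level in a hormone-sensing gate as a percentage of the progenitor gate of the same model and tissue puts the genes beside Elf5. In GFP-negative ducts this was 1.77% for Btn1a1, 2.35% for Xdh, 2.73% for Mfge8, 5.21% for Muc1 and 3.32% for Elf5. Plin2 was at 7.96% and Lpl at 20.9%, above these. In YFP-positive ducts the percentages were 4.76% for Btn1a1, 6.59% for Xdh, 7.26% for Mfge8, 9.44% for Muc1, 12.99% for Plin2 and 11.95% for Elf5. In GFP-negative and YFP-positive TEBs the percentages for Plin2 (23.0% and 19.0%) and Mfge8 (14.0% and 11.8%) were higher than those for Elf5 (3.78% and 4.32%). Those for Muc1 (5.286% and 7.285%) and Lpl (13.47% and 4.446%) were also higher than those for Elf5. Xdh was at 1.547% and 5.875%, above Elf5 in YFP-positive TEBs only. Btn1a1 was at 0.986% and 3.29% there. The part of these transcripts in the result was not tested.

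**Figure D3:**
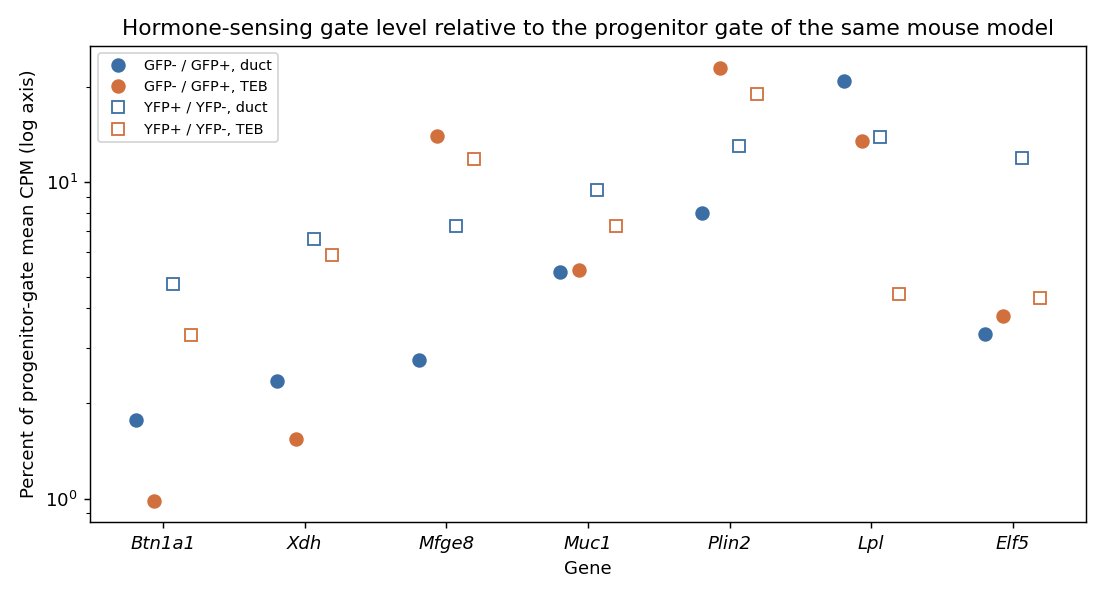
Mean CPM in the hormone-sensing gate as a percentage of the progenitor gate of the same mouse model and tissue (y axis), for Btn1a1, Xdh, Mfge8, Muc1, Plin2, Lpl and the progenitor marker Elf5 (x axis). Of the genes shown, Lpl stands highest in ducts, at 20.9% in GFP-negative and 13.9% in YFP-positive cells. Among the same genes Plin2 stands highest in TEBs, at 23.0% in GFP-negative and 19.0% in YFP-positive cells. Btn1a1 is lowest there, at 0.986% and 3.29%. The low genes Cidea, Fabp3 and Cd36 are not shown, and Cd36 was at 54.6% and 115.4% in GFP-negative and YFP-positive ducts.

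Over all genes tested, 13.0% were higher in hormone-sensing TEBs. Of the other genes of the pathway there, 3 of 17 lipid droplet genes were lower and 1 was higher. Mgll, monoacylglycerol lipase, was 8.444-fold lower and Plin3, a relative of Plin2, 1.344-fold higher. Of 15 genes of triglyceride synthesis, 4 were lower, including Acsl1 (5.316-fold), Lpin1 (1.968-fold) and Dgat2 (1.857-fold), and 1 was higher, Gpat3 (2.159-fold). In fatty acid uptake and transport 4 of 17 were higher and 2 were lower, Angptl4 (3.466-fold) and Slc27a1 (1.508-fold). Of 14 other membrane genes 6 were lower, among them Slc34a2 (8.072-fold) and Muc15 (5.823-fold), and Anxa5 was higher (1.907-fold). Of 13 regulators 2 were higher and 2 were lower, and the larger of the falls was that of Elf5 (2.897-fold).

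In basal cells, 4 of the 9 genes were lower in TEBs and none was higher, where 22.8% of all genes tested were lower. The median log2 fold change was -1.29 over the 9 genes and -0.04 over all genes. By model, 4 of the 9 were lower in the Elf5 model and 1, Muc1, in the PR-cre model. Of all genes, 36.4% and 24.7% were called there in either direction. The medians over the 9 genes were -1.51 and -0.01, beside -0.06 and 0 over all genes. Muc1 was at 1.47 and 2.43 CPM in ducts of the Elf5 model and at 0.32 CPM in both of its TEB libraries. In the PR-cre model it was at 3.40 and 5.68 CPM in ducts and at 0.41 and 1.65 CPM in TEBs. Within each model the TEB libraries were below the ducts, while across models they overlapped (-2.37 ± 0.37, adjusted p = 0.000121, and -3.01 without replicate 2 of the PR-cre basal TEBs). Xdh was between 25.2 and 33.2 CPM in the 4 ducts and between 4.79 and 16.8 CPM in the 4 TEBs, without overlap (-1.71 ± 0.37, adjusted p = 0.00171). By model the log2 fold change of Xdh was -2.44 (adjusted p = 0.00268) in the Elf5 model and -0.98 (adjusted p = 0.188) in the PR-cre model.

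Btn1a1 differed between the mouse models. It was at 10.1 and 9.87 CPM in basal ducts of the Elf5 model and at 0.45 and 0.49 CPM in TEBs. In the PR-cre model it was at 0.71 and 1.86 CPM in ducts and at 1.40 and 1.65 CPM in TEBs. The ducts stood above the TEBs in the Elf5 model and not in the PR-cre model. The log2 fold change was -4.40 ± 0.67 there (adjusted p = 0.000185) and 0.24 ± 0.64 in the PR-cre model (adjusted p = 0.85). Over both models it was -2.08 ± 0.47 (adjusted p = 0.00254). The difference between the effects of the models, tested after it had been seen, was -4.63 ± 0.93 (adjusted p = 0.0343), in a comparison where 0.994% of all genes were called. Btn1a1 was the one gene of the 9 called in it. Elf5 itself was at 22.9 and 29.2 CPM in basal ducts of the Elf5 model, at 16.9 and 19.3 CPM in its TEBs, and between 1.02 and 3.36 CPM in the basal libraries of the PR-cre model. Other cell type markers moved with these genes in basal TEBs: 4 of 8 luminal markers were lower and none was higher, and their sum was 886.7 to 1059 CPM in ducts and 546.6 to 748.2 CPM in TEBs. Of 9 luminal progenitor markers 4 were lower and 3 higher, with a sum of 339.9 to 492.6 CPM in ducts and 494.5 to 1155 CPM in TEBs. Of 10 basal markers 6 were lower, and their sum was 30710 to 33220 CPM in ducts and 8430 to 14800 CPM in TEBs. The part of these transcripts in the basal values was not tested.

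Cd36, a fatty acid receptor also found on capillary endothelium, platelets and macrophages, was at 23.7 and 10.4 CPM in basal ducts of the Elf5 model. It was between 0.66 and 3.66 CPM in the other 6 basal libraries. Its log2 fold change was -2.59 in the Elf5 model (adjusted p = 0.00202) and 0.003 in the PR-cre model, where it was not called. Over both models the log2 fold change was -1.29 ± 0.40 (adjusted p = 0.0153), and without replicate 1 of the Elf5-model basal ducts it was -0.88 (adjusted p = 0.114). The call was also lost without replicate 1 of the Elf5-model basal TEBs (adjusted p = 0.0684), replicate 1 of the PR-cre basal ducts (0.0726) or replicate 2 of the PR-cre basal TEBs (0.0705). Endothelial markers moved with it within basal cells. Of 14 endothelial markers, 7 were lower in basal TEBs and none was higher. Their sum was 157.9 and 73.6 CPM in the 2 Elf5-model basal ducts and 30.65 to 40.5 CPM in the other 6 basal libraries. Pecam1 was at 28.9 and 12.8 CPM in those 2 ducts and at most 4.33 CPM in the others. Fabp4, of the adipocyte list, was at 32.8 and 22.4 CPM against at most 6.98 CPM. Not all endothelial markers followed: Kdr was at 4.40 and 2.19 CPM in those 2 ducts and at 8.88 CPM in each Elf5-model basal TEB library. Plvap was at 3.36 to 18.1 CPM in basal ducts and at 9.36 to 15.6 CPM in basal TEBs. In hormone-sensing ducts the sum of the 14 endothelial markers was 94.51 to 189.9 CPM, with Cd36 at 0.60 to 4.63 CPM. Of 13 tested macrophage and leukocyte markers 6 were lower in basal TEBs, and their sum was 25.93 to 58.57 CPM in ducts and 5.518 to 10.01 CPM in TEBs. Their part in the result was not tested.

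**Figure D4:**
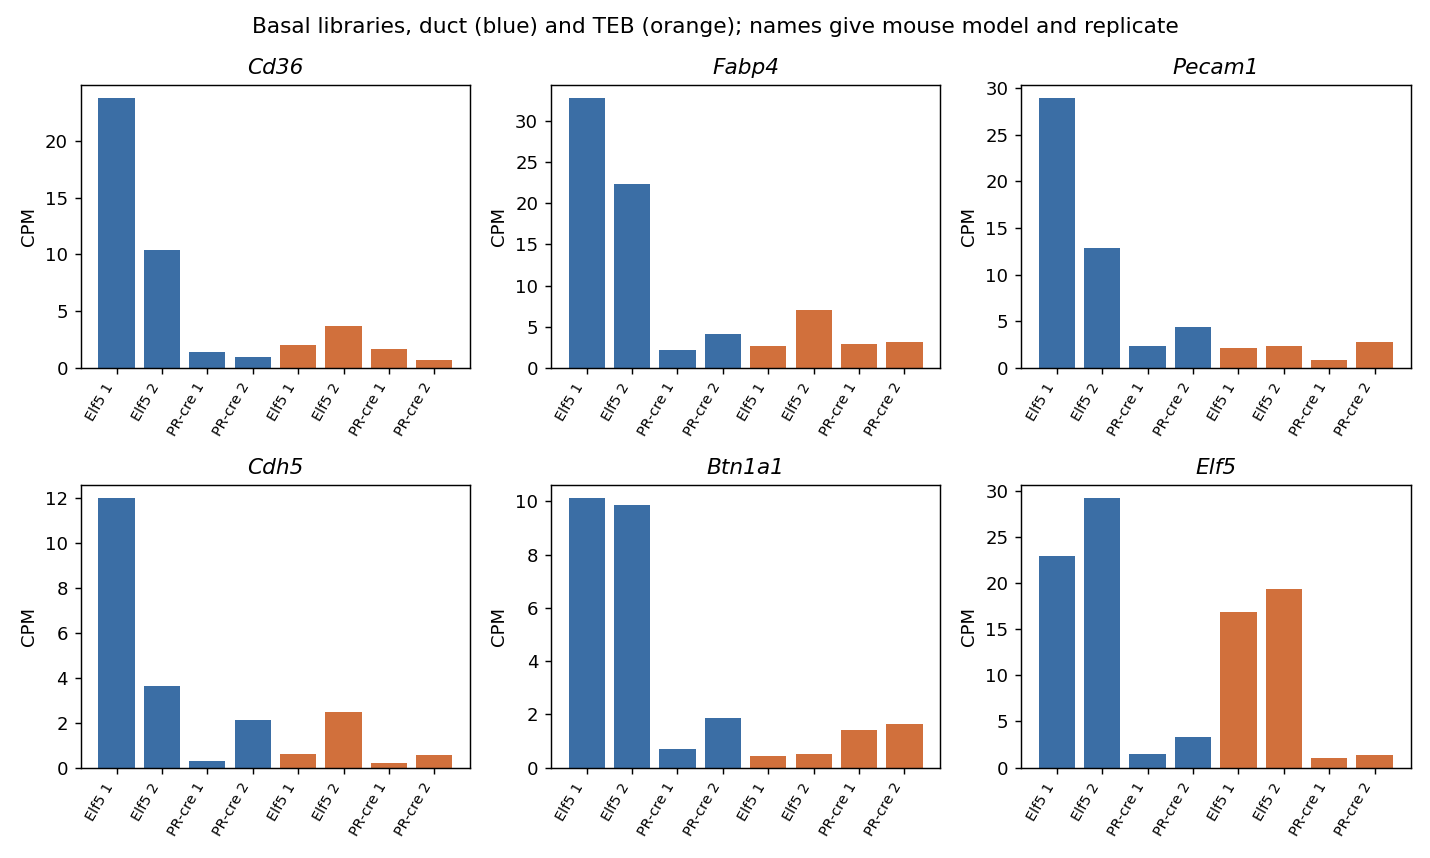
CPM (bars from 0) of Cd36, Fabp4, the endothelial genes Pecam1 and Cdh5, Btn1a1 and Elf5 in the 8 basal libraries, ducts in blue and TEBs in orange. Cd36, Fabp4 and Pecam1 are highest in the 2 duct libraries of the Elf5 model, at 23.7 and 10.4 CPM for Cd36.

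Plin2, Mfge8, Lpl, Cidea and Fabp3 were not called in basal cells. Plin2 was between 34.6 and 47.0 CPM in the 8 libraries, close to its level in the hormone-sensing gates. Mfge8 was at 852 and 564 CPM in ducts of the Elf5 model against 593 and 657 CPM in TEBs, and at 910 and 793 CPM in ducts of the PR-cre model against 1131 and 1193 CPM in TEBs (0.13 ± 0.17, adjusted p = 0.555). The sets overlapped. Lpl was at 9.99 and 6.20 CPM in ducts of the Elf5 model against 10.3 and 6.38 CPM in TEBs, and at 1.51 and 1.502 CPM in ducts of the PR-cre model against 2.78 and 6.27 CPM in TEBs. Its log2 fold change was 0.81 ± 0.40 with an adjusted p of 0.118, which became 0.0297 in a fit of only the groups compared and 0.0456 without the libraries with keratinocyte transcripts. Cidea had at most 0.49 CPM, and Fabp3 was from 0.76 to 1.14 CPM in ducts and from 0.15 to 0.78 CPM in TEBs (-1.19 ± 0.75, adjusted p = 0.222).

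Adipocyte markers bear on Lpl, Cd36 and Plin2, which fat cells also express. Adiponectin (Adipoq) had 0 counts in 20 of the 24 libraries and at most 0.173 CPM, and Plin1 had 0 counts in 16 libraries and at most 0.247 CPM. The 12 adipocyte markers summed to 95.57 to 133.1 CPM in basal ducts, 68.74 to 88.45 CPM in basal TEBs and 4.282 to 17.2 CPM in luminal libraries. The marker with the highest level in basal cells was Slc2a4, a glucose transporter gene, at 60.5 to 87.3 CPM. Leptin (Lep) was at 6.999 to 20.4 CPM in basal ducts and 0.20 to 1.38 CPM in basal TEBs, Fabp4 at 2.19 to 32.8 and 2.64 to 6.98 CPM, and Ucp1 at 1.38 to 5.13 and 0.493 to 1.93 CPM. Of 7 tested adipocyte markers, 2 were lower and 1 was higher in basal TEBs. Their part in the results on Lpl, Cd36 and Plin2 was not tested.

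Next, the 2 luminal cell types were compared within each tissue. In ducts, 7 of the 9 genes were higher in the progenitor gates and none was lower, where 24.6% of all genes tested were higher. In TEBs 7 were higher too, and the share of all genes was again 24.6%. The median log2 fold change was 3.83 in ducts and 3.06 in TEBs, beside 0 and 0.06 over all genes. The log2 fold changes in ducts were 5.11 ± 0.41 for Btn1a1, 4.67 ± 0.40 for Xdh, 3.30 ± 0.13 for Plin2, 4.49 ± 0.19 for Mfge8, 3.83 ± 0.30 for Muc1 and 2.54 ± 0.43 for Lpl. In TEBs they were 5.79, 5.05, 2.26, 2.96, 4.01 and 3.69 in the same order. Each of these adjusted p-values was at most 0.000139. Without GFP-negative duct replicate 2 the values in ducts were 5.70 for Btn1a1, 5.40 for Xdh and 3.14 for Lpl. The duct libraries overlapped for Lpl, at 2.38 to 37.8 CPM in the progenitor gates and 0.36 to 9.06 CPM in the hormone-sensing gates.

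Fabp3 and Cidea were each called in 1 tissue. Fabp3 was higher in progenitor ducts (adjusted p = 0.00104), at 0.48 to 1.20 CPM against 0 to 3 counts in the hormone-sensing ducts, too few for a fold change. In TEBs Fabp3 was not called (adjusted p = 0.238). Cidea was higher in progenitor TEBs, at 1.21 to 4.70 CPM against 0.20 to 0.64 CPM (3.06 ± 1.09, adjusted p = 0.0295). That call was lost on leaving out any of 6 of the 8 libraries compared, with an adjusted p of up to 0.101. In ducts it was not called (adjusted p = 0.165), and without the libraries with keratinocyte transcripts the adjusted p was 0.000553, against 1 library at 0 counts in GFP-negative ducts. Cd36 was called in neither tissue (adjusted p = 0.545 in ducts and 0.2 in TEBs).

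The other pathway genes did not share one direction between the luminal cell types, in ducts where 23.3% of all genes tested were lower in the progenitor gates. There 7 of 17 lipid droplet genes were higher in the progenitor gates, led by Mgll (10.18-fold), and 3 were lower, led by Lipe (2.302-fold). For triglyceride synthesis 3 of 15 were higher, among them Acsl1 (12.8-fold) and Lpin1 (4.31-fold), and 8 were lower. Among the latter, Dgat2, which adds the last fatty acid to triglyceride, was 12.16-fold lower and Lpin2 was 7.131-fold lower. Of 17 uptake and transport genes 5 were higher, including Vldlr (12.39-fold), the receptor for triglyceride-rich lipoproteins, and Dbi (5.758-fold), and 3 were lower. Of 14 other membrane genes 7 were higher, led by Btn2a2 (35.43-fold), Muc15 (30.83-fold) and Slc34a2 (20.9-fold), and 3 were lower, led by Cd24a (3.082-fold). Of 13 regulators 5 were higher and 4 were lower. Elf5 was 15.89-fold higher (it drives the reporter of the GFP sort), and the prolactin receptor gene Prlr was 11.78-fold lower.

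Basal cells were then compared with the mean of the luminal gates. In ducts 5 genes were lower (Btn1a1, Xdh, Plin2, Cidea and Muc1) and 2 were higher (Fabp3 and Cd36), where 29.8% of all genes were lower and 33.5% higher. In TEBs the same 5 were lower and Mfge8 was higher, where 28.0% of all genes were lower and 30.8% higher. The libraries overlapped for the called genes other than Btn1a1 and Muc1 in ducts, and Cidea and Muc1 in TEBs. Mean Xdh was 29.8, 24.6 and 703.6 CPM in basal, hormone-sensing and progenitor ducts, and 10.0, 6.27 and 180 CPM in the TEBs. For Plin2 the duct means were 41.7, 42.1 and 441.6 CPM. Fabp3 was at 0.76 to 1.14 CPM in basal and 0.73 to 1.20 CPM in GFP-positive ducts. Cd36 was at 10.4 to 23.7 CPM in Elf5-model and 0.93 to 1.39 CPM in PR-cre basal ducts. Muc1 had log2 fold changes of -4.25 ± 0.30 in ducts and -4.84 ± 0.34 in TEBs, and Btn1a1 of -6.58 ± 0.44 and -4.00 ± 0.43. Mfge8 was not called in ducts (-0.22 ± 0.14, adjusted p = 0.191), where the basal libraries, at 564 to 910 CPM, lay between the hormone-sensing gates, at 106 to 304 CPM, and the progenitor gates, at 3305 to 5504 CPM. In TEBs its log2 fold change was 1.24 ± 0.14 (adjusted p = 8.74e-07). The basal TEBs of the PR-cre model, at 1131 and 1193 CPM, were within the range of the GFP-positive TEBs, and those of the Elf5 model, at 593 and 657 CPM, were below every progenitor TEB library. The call on Cd36 in ducts was lost without replicate 1 of the Elf5-model basal ducts (adjusted p = 0.0728), and that on Cidea without GFP-negative duct replicate 2 (adjusted p = 0.938), replicate 2 of the Elf5-model basal ducts (0.0689) or replicate 2 of the PR-cre basal ducts (0.0921). Mfge8 was called lower in basal ducts without replicate 1 of the Elf5-model basal ducts (-0.46, adjusted p = 0.0202) or GFP-negative duct replicate 1 (-0.37, adjusted p = 0.0143). Lpl, not called in TEBs, was called higher in basal cells there once the pair with keratinocyte transcripts was left out (log2 fold change 0.86). This is against the mean of the luminal gates. Lpl was at 2.78 to 10.3 CPM in basal, 0.40 to 2.67 CPM in hormone-sensing and 6.58 to 20.4 CPM in progenitor TEBs.

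The tests of differences between TEB effects set the genes apart. Between the luminal cell types, 2 of the 9 differed, where 10.6% of all genes did: the effect in the progenitor gates minus that in the hormone-sensing gates was -1.04 ± 0.16 for Plin2 (adjusted p = 0.000642) and -1.53 ± 0.24 for Mfge8 (adjusted p = 0.000643). For Btn1a1 it was 0.68 ± 0.51 (adjusted p = 0.472), for Xdh 0.38 ± 0.50 (adjusted p = 0.744) and for Muc1 0.18 ± 0.38 (adjusted p = 0.896). An adjusted p above the threshold does not show that the effects of these 3 were equal. Between basal cells and the mean of the luminal gates 4 of the 9 differed, where 26.3% of all genes did. For Btn1a1 the effect in basal cells was -4.40 in the Elf5 model and 0.24 in the PR-cre model, and -5.38 to -4.075 in the luminal gates. For Plin2 the effect was -0.09 in basal cells, -0.04 in the hormone-sensing gates and -1.08 in the progenitor gates. The basal effect minus the luminal one was 2.57 ± 0.57 for Btn1a1 (adjusted p = 0.00389), 1.46 ± 0.20 for Mfge8 (adjusted p = 6.26e-05), 0.47 ± 0.14 for Plin2 (adjusted p = 0.0202) and -1.57 ± 0.49 for Cd36 (adjusted p = 0.0254). Those on Plin2 and Cd36 each rested on single libraries: the adjusted p was 0.071 for Plin2 without replicate 2 of the Elf5-model basal TEBs and 0.0528 without replicate 2 of the PR-cre basal TEBs. For Cd36 it was 0.113 and 0.0779 without replicate 1 of the Elf5-model basal ducts or TEBs, and 0.0848 and 0.0749 without replicate 1 of the PR-cre basal ducts or replicate 2 of the TEBs. Muc1 became called without replicate 2 of the PR-cre basal TEBs (-1.23, adjusted p = 0.021), and Cidea without the pair of libraries with keratinocyte transcripts (-3.62, adjusted p = 0.0496), where its fitted value depends on the prior count.

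Across the single gates, 20 of 54 tests were lower in TEBs, 1 was higher and 33 were not called. The share of all genes called in either direction was 36.4% in basal cells of the Elf5 model and 24.7% in those of the PR-cre model. It was 22.8% in GFP-positive, 18.5% in GFP-negative, 18.4% in YFP-negative and 7.86% in YFP-positive cells. Muc1 was lower in 6 of 6 gates, with log2 fold changes from -2.57 to -1.54, though in GFP-negative cells its adjusted p was 0.0534 without the libraries with keratinocyte transcripts. Btn1a1 was lower in 5, Xdh and Mfge8 in 3 each, Plin2 in 2 and Cd36 in 1. In a fit of each gate's own 4 libraries, Xdh was also lower in YFP-negative (adjusted p = 3.89e-10), YFP-positive (0.000285) and basal PR-cre cells (0.00163), and it was so too without the libraries with keratinocyte transcripts (0.0138, 0.0048 and 0.015 in the same order). The same fits added 3 higher calls: Lpl in basal PR-cre cells (1.60, adjusted p = 0.00971) and in YFP-negative cells (1.44, adjusted p = 0.00736), and Mfge8 in basal PR-cre cells (0.47, adjusted p = 0.00851). Lpl in basal PR-cre cells (1.58, adjusted p = 0.064) was also called by DESeq2 (adjusted p = 0.0334) and with the keratinocyte pair left out (adjusted p = 0.018), and DESeq2 called Xdh lower in YFP-positive (0.0283) and YFP-negative cells (0.0378). In the fits of 4 libraries the calls on Btn1a1, Xdh and Muc1 in GFP-negative cells were lost (adjusted p = 0.116, 0.253 and 0.101).

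As a description, the pattern of each gene over the 12 group means was set beside that of 11832 other genes. The 12 means share mouse models and a normalization, and no test was made. Closest to Btn1a1 were Fcgbp (Pearson r = 0.994), Clic6 (0.981) and Ltf (0.975), the last encoding the milk protein lactoferrin. For Xdh they were Car5b (0.979), Pacs1 (0.977) and Rora (0.975), and for Plin2 Erlin2 (0.976), Pacs1 (0.971) and Agt (0.97). For Mfge8 they were Fam131a (0.981), Tmtc2 (0.957) and Pag1 (0.952), and for Muc1 Scml4 (0.982), Slc5a1 (0.977) and Rasgef1c (0.976). For the low genes they were Tnfaip2 (0.97), Cldn23 (0.967) and Slc31a2 (0.962) for Cidea, and Rnf216 (0.926), Hs6st1 (0.917) and Tlr2 (0.912) for Fabp3. Cd36 was closest to Zfp949 (0.862), Fabp4 (0.858) and Rab2b (0.857), and Lpl to Lats1 (0.925) and Ptprv (0.908). Among the 9 genes themselves, Xdh and Plin2 had an r of 0.922, Btn1a1 and Muc1 of 0.912, and Btn1a1 and Xdh of 0.897. Cd36 and Lpl had an r of 0.65.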

How the data were processed

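RNA was sequenced in 24 bulk libraries of sorted mammary cells. The authors deposited whole-number counts per gene, by Entrez identifier, made with featureCounts on mm10, per the submitters' processing notes; for the aligner, annotation release and strand setting, the entry is: not given in the sources used here. Libraries held 31.3 to 52.5 counts in units of 1e6, and floors cover counting error only. A chi-square test over genes separated the replicates of every group from sampling noise (17.99 to 174.5 per degree of freedom). Symbols came from RefSeq for 25275 identifiers. Counts were fitted with edgeR 4.0.16 (quasi-likelihood, TMM, filterByExpr with a minimum count of 10 and a minimum total of 15) in R 4.3.3, in one model of the 12 groups with 12 residual degrees of freedom, and p-values were adjusted by Benjamini-Hochberg over 18109 genes. The script was tested on simulated data. Contrasts average the log2 levels of groups. RPKM used the deposited exon lengths.

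The 9 genes and all lists were chosen with earlier results of these data known. All 9 genes are named; from each of the 5 pathway lists at most the 3 called genes with the largest log2 fold change in each direction, and for each gene the 3 with the most similar group means (r of log2 CPM with a prior count of 2, among genes reaching 10 CPM in a group). A few genes that this rule names are not reported here. The alternatives were DESeq2 1.42.0, its size factors, no filter, a replicate block, only the groups compared, each library left out, and, added after seeing the data, no libraries with keratinocyte transcripts. The contrast of basal TEB effects between models was also added then.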

Additional observations from a re-analysis of the deposited data

Results flagged for a closer look

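By a test of the difference itself, the change from duct to TEB differed between cell types for 4 of the 9 genes. In the first comparison below 2 of the 9 differed, where 10.6% of all genes tested did. In the second 4 of the 9 differed, where 26.3% of all genes tested did. Between the progenitor and the hormone-sensing gates, the difference in log2 fold change was -1.04 for Plin2 and -1.53 for Mfge8, both more negative in the progenitor gates. Between basal cells and the mean of the luminal gates, the difference was 2.57 for Btn1a1, 0.47 for Plin2 and 1.46 for Mfge8, and -1.57 for Cd36. The first 3 had a higher value in basal cells and Cd36 a lower one. As given above, the calls on Plin2 and Cd36 between basal and luminal cells rested on single libraries. Not every gate followed this: the Btn1a1 effect in basal Elf5-model cells was -4.40, within the range of the luminal gates (-5.38 to -4.075). The Plin2 effect was -0.09 in basal cells and -0.04 in hormone-sensing gates. For Mfge8 the effect was -0.18 in basal Elf5-model cells and 0.15 in GFP-negative cells. Groups of 2 libraries are too small to single out one library as an outlier.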

How the results depend on the processing

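Over the alternative settings other than leaving out 1 library, 467 values kept their direction and their side of the threshold, 6 passed it, 5 missed it and 8 changed sign; with 1 library left out, these were 885, 7, 24 and 20. In a fit of only the groups compared, which estimates the spread from fewer libraries, hormone-sensing TEBs had 2 calls in place of 4. In single gates such fits both added and ended calls, and the cause was not tested.

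Without the 2 libraries with keratinocyte transcripts, log2 fold changes changed sign for hormone-sensing TEBs against ducts in Plin2 (0.08) and Cidea (3.43), for basal against luminal ducts in Lpl (0.12), for progenitor minus hormone-sensing effects in Btn1a1 (-0.16), Xdh (-0.45), Cidea (-3.97) and Muc1 (-0.0046), and for basal minus luminal effects in Xdh (-0.06). None of these 8 passed the threshold. Fitted values for Cidea then depend on the prior count, since the remaining GFP-negative duct library has 0 counts. The cause was not tested for the others.

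With each library left out, the calls ran from 3 to 4 for basal TEBs, stayed at 5 for progenitor TEBs and ran from 3 to 4 for hormone-sensing TEBs. They ran from 17 to 28 over the single gates, from 7 to 8 between luminal gates in ducts and from 6 to 7 in TEBs, from 6 to 8 for basal against luminal ducts and from 6 to 7 in TEBs. They stayed at 2 for the difference between luminal effects and ran from 3 to 5 for basal minus luminal effects. The lone library of a reduced group is assumed to vary like the other groups.

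Of the values that changed sign in these refits, Cidea for basal minus luminal effects was called in 1 refit, without GFP-negative duct replicate 2 (-3.77, adjusted p = 0.037), and the others in none. They ran from -0.16 to 0.04 (Plin2) and -3.64 to 1.03 (Cidea) in basal TEBs against ducts, from -0.53 to 0.22 (Cidea) in progenitor gates, and, in hormone-sensing gates, from -0.14 to 0.10 (Plin2), -1.88 to 3.47 (Cidea), -0.11 to 3.61 (Fabp3) and -0.04 to 0.37 (Cd36). They ran from -0.02 to 0.56 (Cd36) between luminal gates in ducts and from -0.47 to 0.05 (Lpl) for basal against luminal ducts. For progenitor minus hormone-sensing effects they ran from -0.42 to 0.71 (Xdh), -3.65 to 1.70 (Cidea), -0.07 to 0.36 (Muc1) and -0.07 to 0.60 (Cd36), and for basal minus luminal effects from -0.05 to 0.51 (Xdh) and -3.77 to 1.81 (Cidea).

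Replicate numbers are shared across groups, but same-numbered duct and TEB libraries were hardly correlated (0.039 to 0.102 over the 6 gates), and same-numbered libraries of different gates in 1 model and tissue had correlations of 0.01 to 0.152. The labels do not say what a number marks, and the numbers were not taken as pairs. With a replicate block the calls were 4, 5 and 4 for basal, progenitor and hormone-sensing TEBs, 7, 7, 7 and 6 for the comparisons of cell types, 2 and 4 for the differences between effects, and 19 in place of 21 over the single gates. In single gates the block ended 2 calls in YFP-negative cells, Plin2 (adjusted p = 0.0607) and Cd36 (adjusted p = 0.0634). Depth limits Cidea and Fabp3, which were near the floor of 3 counts in several libraries.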

Other observations

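Basal and luminal cells also differed in lipid genes beside the 9 above. In ducts, where 33.5% of all genes tested were higher in basal than in luminal cells and 29.8% lower, 4 of 17 other lipid droplet genes were higher and 12 were lower. Plin4, a perilipin of fat and muscle, was 29.52-fold higher, and Lipe was 6.151-fold lower. Of 17 genes of fatty acid uptake and transport 6 were higher and 5 were lower: Slc27a6, a fatty acid transport protein, was 57.83-fold higher, Slc27a3 12.06-fold and Angptl4 5.92-fold. Of 14 other membrane genes 10 were lower, with Muc4 296.1-fold, Folr1 121.4-fold and Btn2a2 116.3-fold lower. Of 13 regulators 9 were lower and none was higher, led by Prlr (284.6-fold) and Elf5 (33.11-fold).

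In basal TEBs against basal ducts, where 22.8% of all genes tested were lower, the lists did not share one direction. Of 17 other lipid droplet genes 5 were lower and 2 were higher. Of 15 genes of triglyceride synthesis 4 were lower and 4 were higher. Of 17 genes of fatty acid uptake and transport 3 were lower and 7 were higher. Plin4 was 9.458-fold lower (adjusted p = 2.82e-05). Pnpla2 was 2.683-fold lower and Angptl4 3.327-fold lower. Fabp5, a fatty acid binding protein of skin, was 6.203-fold higher (adjusted p = 0.0136) and Vldlr 2.384-fold higher. The leptin gene Lep was at 6.999 to 20.4 CPM in the 4 basal ducts, at 0.20 to 1.38 CPM in the 4 basal TEBs, and at most 0.0498 CPM in the 16 luminal libraries.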
